A study of Mus musculus with 13 samples.

Results

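The collagen genes of the mouse were followed in gastrocnemius muscle, the main calf muscle, as the 44 genes of the deposited table whose symbol reads Col, a type number, a and a chain number. They were 44 of the 21868 genes listed, and 33 of them had a mean normalized count of at least 10 over all mice and entered the tests with 12303 genes in all. By chain type, 11 encode fibril-forming collagens, 9 encode collagens of basement membranes and of their anchoring (types IV, VII, XV and XVIII), 6 encode type VI chains, 9 encode fibril-associated collagens with interrupted triple helices (FACIT), 4 encode transmembrane collagens, and the remaining 5 are minor types (VIII, X, XXVI and XXVIII). The study examined muscle of obese mice treated with semaglutide, a glucagon-like peptide 1 receptor agonist used against obesity, and asked what changed when a ketone ester was given with it. Male C57BL/6 mice (C57BL/6N in the study's account of the sequenced animals), 7 weeks old on entry, had become obese on a diet with 60 kcal% fat over 15 to 17 weeks, and every group then returned to standard chow for 3 weeks of treatment. The 5 vehicle-treated mice (labelled Vehicle+placebo, mice 1 to 5) received phosphate-buffered saline, the 5 semaglutide-treated mice (Semaglutide+placebo, mice 13 to 17) received semaglutide at 30 nM/kg/day by intraperitoneal injection, and the 3 semaglutide + ketone ester-treated mice (mice 19, 21 and 22) received that dose with the ketone ester dissolved in drinking water at 0.114 g/mL. There is 1 library per mouse, and the labels place all of them in 1 batch. Values below are always listed in that order of mice, and a normalized count is the number of reads on a gene scaled for the depth of its library.

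Collagens are secreted proteins in which chains wind around each other as a triple helix, and each chain is the product of its own gene. In skeletal muscle, fibrils of types I and III fill the endomysium, perimysium and the tendon ends, with type V in their core, while a network of type IV covers every muscle fibre and capillary as basement membrane and type VI microfilaments link these layers. Fibroblasts of the interstitium and tendon make most of the fibrillar and type VI chains, whereas type IV chains are also made by endothelial cells, mural cells and the muscle fibres.

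Between 15319471 and 23498162 reads were counted on genes per mouse. Collagen genes took a small share of them, 0.0584%, 0.0909%, 0.0841%, 0.0915% and 0.0936% in the vehicle-treated mice, 0.0449%, 0.0311%, 0.0241%, 0.0365% and 0.0270% in the semaglutide-treated mice, and 0.0591%, 0.0805% and 0.0539% under the combination. All 5 semaglutide-treated mice lay below every other mouse, and vehicle-treated mouse 1 lay apart from the rest of its group. A pair of libraries stand apart for collagen genes and are named wherever they matter: vehicle-treated mouse 1 for its low fibrillar collagens, and semaglutide-treated mouse 13, whose score on the first principal component of all genes tested (38.1% of the variance) was -9.12 against 31.8 to 52.5 in the others of its group and -24.5 to -12.8 in vehicle-treated mice. Semaglutide-treated mouse 16 stood apart on the second component, at -45.3 against 6.43 to 25.1 in the others of its group. Without mouse 1 and mouse 13 together, a choice made after the values were seen, the counts given next became 25 lower, 24 higher and 2 lower.

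Of the 33 collagen genes tested, 23 were lower and 0 higher under semaglutide than under vehicle (limma, Benjamini-Hochberg adjusted p under 0.05 over all genes tested), where 13.9% of all genes tested were lower and 12.5% higher. At an unadjusted p under 0.05 the number higher was 1, Col7a1, and it was 0 by edgeR and by DESeq2. The log2 fold change was negative for 32 of the 33, with a median of -1.20 against -0.003 over all genes tested. In semaglutide + ketone ester-treated mice 21 were higher and 0 lower than in semaglutide-treated mice (10% and 10.7% of all genes tested), with a median log2 fold change of 1.10 against -0.0002. The number lower in this comparison was 1 at an unadjusted p under 0.05, 0 by edgeR and 1 by DESeq2, where above 0 always Col7a1. The 5 mice of the semaglutide group enter both comparisons, so opposite signs are favoured by construction. Against vehicle-treated mice, which share no mouse with them, the semaglutide + ketone ester-treated mice differed in 2 collagen genes, Col4a1 and Col4a2, both lower, where 0.268% of all genes tested were lower and 0.0975% higher, and the median was -0.16 against -0.006. The number higher in that comparison was 0 in limma, edgeR and DESeq2, and 1, Col8a1, at an unadjusted p under 0.05. Without mouse 21 the number higher than under semaglutide fell from 21 to 13, and without mouse 22 the number lower than under vehicle fell from 2 to 1.

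**Figure D1:**
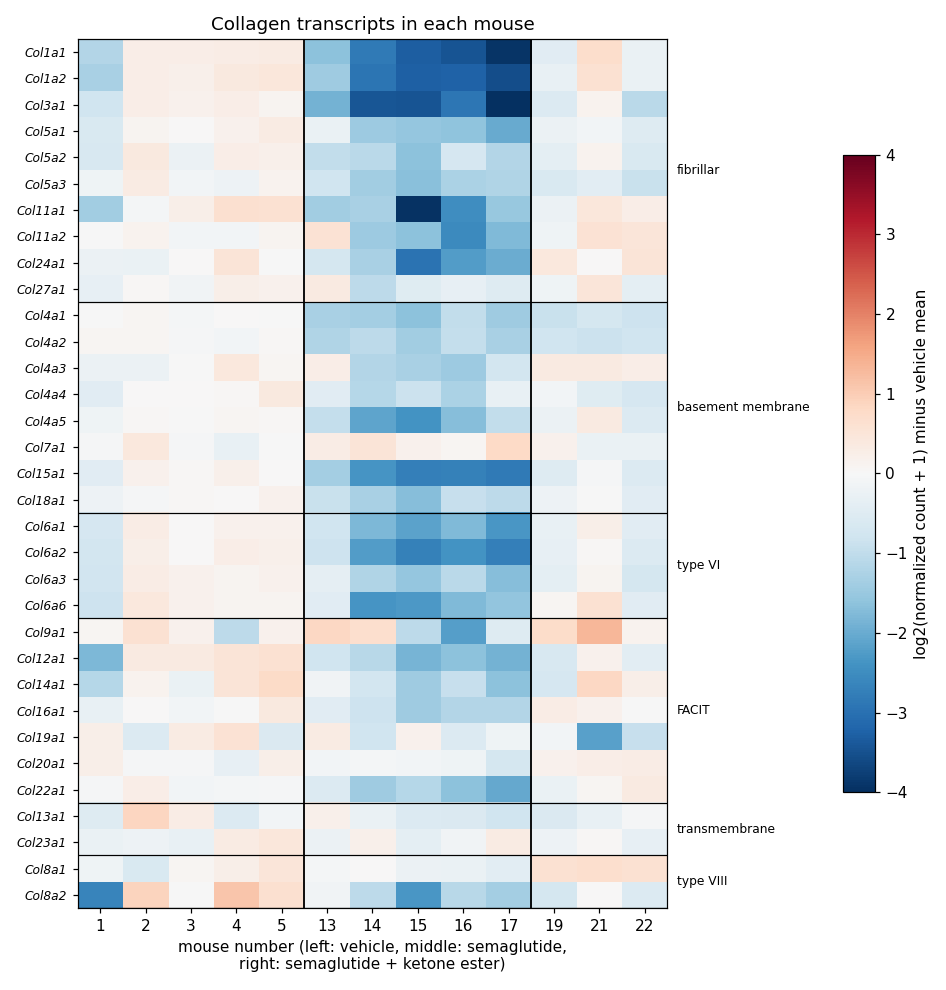
Difference of log2(normalized count + 1) from the vehicle mean for each of the 33 collagen genes tested (rows, by chain type) in each of the 13 mice (columns), on a colour scale that ends at -4 and 4. The semaglutide columns are mostly blue over the fibrillar, type IV, type XV, type XVIII and type VI rows, often palest in mouse 13, while Col7a1 is white to red in all 5.

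By an F test over the 3 groups and a fold of 1.5 between the highest and the lowest group mean, 24 of the 33 were altered (14.6% of all genes tested). By chain type, semaglutide-treated mice were lower than vehicle-treated mice in 9 of 10 fibrillar genes tested (median log2 fold change -1.60), 7 of 8 basement membrane genes (-1.18), 4 of 4 type VI genes (-1.73) and 3 of 7 FACIT genes (-0.98), and in 0 of 2 transmembrane (-0.22) and 0 of 2 type VIII genes (-0.70). Of all genes tested 13.9% were lower, so 0 of 2 is near that share and sets neither type apart. For the last 2 types an unadjusted p under 0.05 was reached by 0 genes, edgeR called 0 and DESeq2 1, Col8a2. The semaglutide + ketone ester-treated mice were higher than the semaglutide-treated mice in 9, 6, 3, 2, 0 and 1 genes of the 6 types in that order (10% of all genes tested), with medians of 1.91, 0.74, 1.68, 1.16, -0.02 and 0.81. Without any overlap between mice, 15 of the 33 were lower (7.45% of all genes tested) and 0 higher (7.22%) under semaglutide than under vehicle, and 20 were higher (9.96%) and 0 lower (10.2%) under the combination than under semaglutide.

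**Figure D2:**
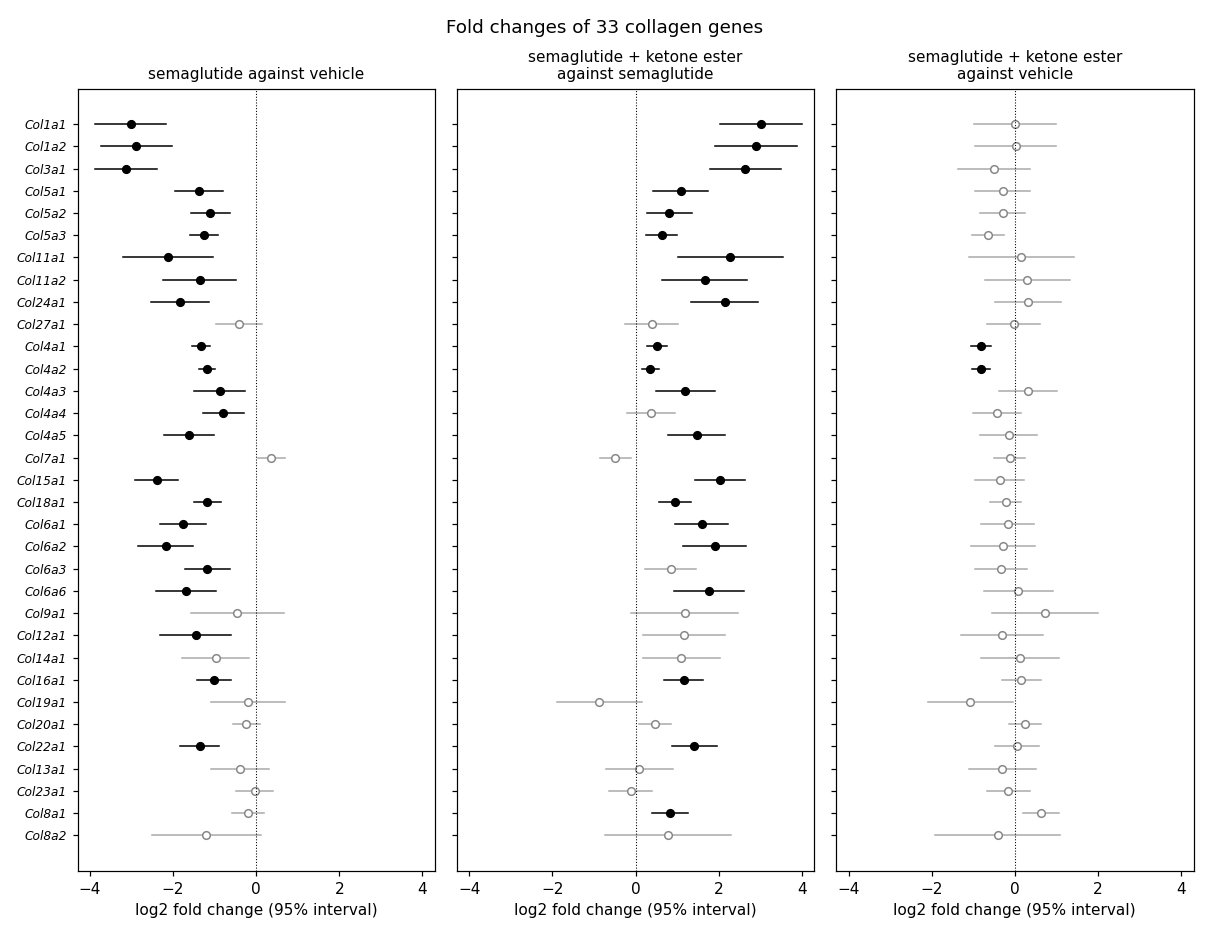
Log2 fold change with its 95% interval for the 33 collagen genes in the 3 comparisons, with genes past the threshold as black filled points. Points lie left of 0 for 32 genes in the first panel and right of 0 for 30 in the second, and in the third only Col4a1 and Col4a2 are filled.

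RefSeq promoter windows (GRCm38.p6, 250 bases before to 50 bases after a transcript start) matched 35 of the 44 genes. Col1a1 was not among them. Those shown first belong to the called genes with the largest change among those matched (Col1a2 at chr6:4505368-4505667 and Col3a1 at chr1:45311288-45311587, both on the plus strand). The next belong to the gene pair called lower than vehicle under the combination (Col4a1 at chr8:11312777-11313076, minus strand, and Col4a2 at chr8:11312555-11312854, plus strand). The last belongs to the gene that did not fall (Col7a1 at chr9:108953336-108953635, plus strand). Each is written 5′ to 3′ on the strand of its gene, and capitals mark any of 3 motifs, searched on both strands. These are CCAAT, which reads ATTGG on the other strand, then TATAAA, which reads TTTATA, and lastly GGGCGG, which reads CCGCCC.
Col1a2: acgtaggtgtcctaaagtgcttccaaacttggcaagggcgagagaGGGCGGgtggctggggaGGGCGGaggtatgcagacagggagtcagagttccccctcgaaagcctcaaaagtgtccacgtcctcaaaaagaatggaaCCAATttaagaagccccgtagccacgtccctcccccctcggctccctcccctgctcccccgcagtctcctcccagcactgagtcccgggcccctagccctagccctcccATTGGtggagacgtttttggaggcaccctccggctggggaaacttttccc
Col3a1: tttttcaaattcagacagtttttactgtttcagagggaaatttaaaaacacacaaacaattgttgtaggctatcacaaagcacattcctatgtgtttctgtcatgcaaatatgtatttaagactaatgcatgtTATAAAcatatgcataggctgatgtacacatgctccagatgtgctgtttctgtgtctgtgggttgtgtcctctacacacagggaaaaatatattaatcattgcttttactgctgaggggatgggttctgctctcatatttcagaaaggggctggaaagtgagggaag
Col4a1: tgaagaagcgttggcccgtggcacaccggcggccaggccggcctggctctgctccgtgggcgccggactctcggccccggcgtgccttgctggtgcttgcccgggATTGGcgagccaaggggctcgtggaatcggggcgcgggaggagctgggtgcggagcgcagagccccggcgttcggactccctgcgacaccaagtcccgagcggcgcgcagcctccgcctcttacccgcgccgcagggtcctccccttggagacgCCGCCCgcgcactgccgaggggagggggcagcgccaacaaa
Col4a2: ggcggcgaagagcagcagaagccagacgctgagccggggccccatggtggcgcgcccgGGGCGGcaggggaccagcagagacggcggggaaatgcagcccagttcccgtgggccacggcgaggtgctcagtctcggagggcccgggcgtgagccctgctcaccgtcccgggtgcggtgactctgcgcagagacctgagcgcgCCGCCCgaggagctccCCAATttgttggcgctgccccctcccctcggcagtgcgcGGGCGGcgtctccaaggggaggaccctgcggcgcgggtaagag
Col7a1: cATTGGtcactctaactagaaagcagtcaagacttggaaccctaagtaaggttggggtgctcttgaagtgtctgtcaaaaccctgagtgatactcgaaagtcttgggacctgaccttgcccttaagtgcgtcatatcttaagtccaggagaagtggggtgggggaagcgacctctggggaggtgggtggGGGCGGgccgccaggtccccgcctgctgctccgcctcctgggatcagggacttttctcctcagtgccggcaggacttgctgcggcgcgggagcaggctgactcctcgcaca

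Col4a1 and Col4a2 lie head to head on chromosome 8, with starts 21 bases apart, so their windows overlap by 78 bases and the GGGCGG of one start is read as CCGCCC in the other. CCAAT was found on either strand in 13 of the 35 collagen genes with a window and in 37.4% of the 32851 RefSeq windows, GGGCGG in 22 and 35.7%, and TATAAA in 5 and 13.6%. Of the genes shown, Col3a1 alone held TATAAA, and its window, with 37.7% G and C, held no CG pair, whereas those of Col4a1 and Col4a2 held 37 and 33 and were 74% and 73.7% G and C. These are matches of letters only.

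Types I and III, the fibril collagens of muscle connective tissue and tendon, changed most. Col1a1 (chr11:94936224-94953042, plus strand, GRCm38) encodes the α1 chain of type I, of which each molecule takes a pair of copies with a single α2 chain. Normalized counts of Col1a1 were 611, 1658, 1654, 1703 and 1736 in the vehicle-treated mice, 444, 195, 140.0, 125 and 89.5 in the semaglutide-treated mice, and 1008, 2265 and 1155 in the semaglutide + ketone ester-treated mice. Mouse 1 held well under the level of any other vehicle-treated mouse, yet remained above the highest semaglutide-treated mouse, so that these groups did not overlap. The log2 fold change of semaglutide against vehicle was -3.02 ± 0.40 (SE, adjusted p = 0.000177), or 0.123 of the vehicle level, and that of semaglutide + ketone ester against semaglutide was 3.03 ± 0.46 (SE, adjusted p = 0.000919). Col1a2, the gene of the α2 chain, had 795, 2391, 2259, 2560.2 and 2713 in the vehicle-treated mice, 736, 258, 202, 208 and 169 in the semaglutide-treated mice, and 1618, 3021 and 1636 in the semaglutide + ketone ester-treated mice. Its order of mice was nearly that of Col1a1, again with mouse 13 highest under semaglutide, and its log2 fold changes were -2.88 ± 0.40 (SE, adjusted p = 0.000242) and 2.90 ± 0.46 (SE, adjusted p = 0.00107). Col3a1, the single chain of type III, which shares fibrils with type I, had 883, 1838, 1706, 1831 and 1646 in the vehicle-treated mice, 413, 141, 140.0, 207 and 90.3 in the semaglutide-treated mice, and 1043, 1674 and 725 in the semaglutide + ketone ester-treated mice. It showed the most negative log2 fold change of all 33 genes, -3.14 ± 0.35 (SE, adjusted p = 5.21e-05), and the return was 2.64 ± 0.40 (SE, adjusted p = 0.000919). Against vehicle, semaglutide + ketone ester gave 0.00 ± 0.46 for Col1a1 (95% interval -0.98 to 0.99), 0.02 ± 0.46 for Col1a2 (-0.96 to 1.00) and -0.50 ± 0.40 for Col3a1 (-1.36 to 0.36), with adjusted p of 0.999, 1.0 and 0.755. These intervals are wide enough to hold differences of 0.9 in either direction for type I, so that equal levels are not shown.

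**Figure D3:**
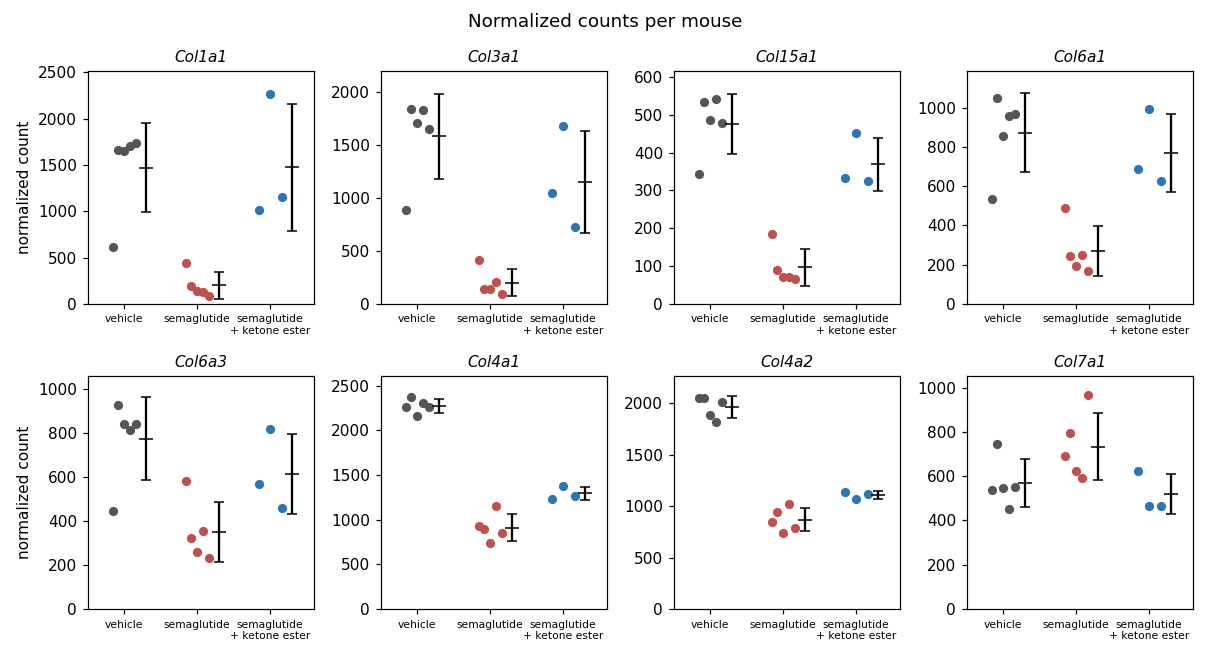
Normalized counts of 8 collagen genes in each mouse (points), with the group mean and SD (bar), on linear axes from 0. For Col1a1, Col3a1, Col15a1, Col6a1 and Col6a3 the semaglutide + ketone ester-treated mice overlap the vehicle-treated mice, Col4a1 and Col4a2 sit between the other 2 groups without overlap with either, and the groups of Col7a1 overlap.

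Type V, which sits in the core of type I fibrils and limits their width, fell to a lesser degree. Col5a1 (α1) had 319, 526, 496, 557 and 618 in the vehicle-treated mice, 412, 179, 168, 159 and 120.1 in the semaglutide-treated mice, and 419, 452 and 340.1 in the semaglutide + ketone ester-treated mice. Only mouse 13 overlapped the vehicle-treated group, and the log2 fold change was -1.38 ± 0.27 (SE, adjusted p = 0.00227). Col5a2 (α2), which lies beside Col3a1 on chromosome 1, had 201, 414, 266, 379 and 361 in the vehicle-treated mice, 159.6, 149, 99.97, 198 and 138 in the semaglutide-treated mice, and 238, 345 and 203 in the semaglutide + ketone ester-treated mice. Col5a3 (α3) had 365, 518, 382, 353 and 456 in the vehicle-treated mice, 234, 157, 129, 169 and 179 in the semaglutide-treated mice, and 268, 306 and 222 in the semaglutide + ketone ester-treated mice. For both genes every semaglutide-treated mouse was below every vehicle-treated mouse, with log2 fold changes of -1.10 ± 0.22 (SE, adjusted p = 0.00267) and -1.26 ± 0.16 (SE, adjusted p = 0.000105). Under semaglutide + ketone ester the 3 chains were higher than under semaglutide by 1.09 ± 0.31 (SE, adjusted p = 0.0233), 0.81 ± 0.25 (SE, adjusted p = 0.0353) and 0.63 ± 0.18 (SE, adjusted p = 0.0246), calls that rested on single mice. Col5a1 was no longer called without mouse 17, 19, 21 or 22 (adjusted p = 0.0528, 0.0662, 0.0946 and 0.053), nor Col5a2 without mouse 14, 15, 17, 19 or 21 (0.0548, 0.0757, 0.0679, 0.0665 and 0.182), nor Col5a3 without mouse 15, 19 or 21 (0.0515, 0.0671 and 0.12). Over 23 alternatives the adjusted p ranged from 0.000135 to 0.0946 for Col5a1, from 0.00681 to 0.182 for Col5a2 and from 0.00234 to 0.12 for Col5a3. All 3 semaglutide + ketone ester-treated mice stayed below every vehicle-treated mouse for Col5a3, at -0.64 ± 0.18 (SE, adjusted p = 0.175), a difference that did not pass the threshold but was called with sample weights and with only these groups in the fit (adjusted p from 0.0437 to 0.611 over 23 alternatives), where 5.88% of all genes tested were lower without overlap in that comparison.

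The other fibrillar genes are given as values chosen after they were seen. Col24a1, a fibrillar chain found in bone and other connective tissue, fell by 1.83 on the log2 scale (adjusted p = 0.00138) from 120.4 to 206 in vehicle-treated mice to 17.8 to 88.01 in semaglutide-treated mice, and was at 145 to 208 with the ketone ester. Col11a1 and Col11a2, chains of the type XI collagen known from cartilage fibrils, had log2 fold changes of -2.12 ± 0.51 (SE, adjusted p = 0.00798) and -1.36 ± 0.41 (SE, adjusted p = 0.0255), and Col11a2 overlapped vehicle through mouse 13 alone, with 231 against 25.2 to 55.2 in mice 14 to 17. The Col11a2 call was lost without any one of mice 2, 15, 16 and 17, with adjusted p up to 0.0633. Col27a1, another cartilage fibrillar chain, did not pass the threshold at -0.41 ± 0.26 (SE, adjusted p = 0.266).

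Basement membrane collagens fell too, and the 2 abundant type IV chains were the 2 collagen genes called lower than vehicle under the combination. Whether these chains fell short of vehicle by more than other collagen chains was not tested. Col4a1 (chr8:11198423-11312826, minus strand) and Col4a2 (chr8:11312805-11449287, plus strand) encode the chains of the ubiquitous type IV network and share 22 exonic bases on opposite strands. Library preparation kept the strand, and whether counting used it is not given in the sources used here. Normalized counts of Col4a1 were 2263, 2376, 2162, 2299.6 and 2258 in the vehicle-treated mice, 924, 890.3, 734, 1149.8 and 855 in the semaglutide-treated mice, and 1229, 1379 and 1269 in the semaglutide + ketone ester-treated mice. Normalized counts of Col4a2 were 2051, 2056, 1885, 1815 and 2012 in the vehicle-treated mice, 846, 944, 742, 1021 and 791 in the semaglutide-treated mice, and 1140.5, 1069 and 1116 in the semaglutide + ketone ester-treated mice. Both genes were tight in every group, mouse 1 was in the midst of the vehicle-treated mice and mouse 13 in the midst of the semaglutide-treated mice, and the 3 groups did not overlap. Semaglutide against vehicle gave -1.33 ± 0.098 (SE, adjusted p = 6.26e-06) and -1.18 ± 0.087 (SE, adjusted p = 6.26e-06), which were 0.397 and 0.44 of the vehicle level. Semaglutide + ketone ester-treated mice were above semaglutide-treated mice by 0.52 ± 0.11 (SE, adjusted p = 0.00641) and 0.36 ± 0.10 (SE, adjusted p = 0.022), and below vehicle-treated mice by -0.81 ± 0.11 (SE, adjusted p = 0.00992) and -0.82 ± 0.10 (SE, adjusted p = 0.00554). Without mouse 22 the Col4a1 difference from vehicle was -0.80 (adjusted p = 0.0931, the highest of 23 alternatives, of which the lowest was 2.2e-07), while that of Col4a2 remained called in all of them (6.26e-10 to 0.0439). Intervals of the other collagen genes tested were wider in this comparison with vehicle. Some of them also held -0.81, such as Col3a1 (-1.36 to 0.36) and Col15a1 (-0.96 to 0.23). Others did not, such as Col18a1 (-0.60 to 0.16). The call alone thus does not set Col4a1 and Col4a2 apart from every other chain. The rise of Col4a1 and Col4a2 above semaglutide was the less certain step. Col4a2 was not called without mouse 17, 19, 21 or 22 (adjusted p = 0.0521, 0.0683, 0.0572 and 0.0777, within 0.00175 to 0.497 over 23 alternatives), and with columns rescaled to equal totals, which set the median of all genes to -0.24, neither gene was called (0.28, adjusted p = 0.152, and 0.12, adjusted p = 0.497).

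The α3, α4 and α5 chains, which form a second type IV network in kidney and some other basement membranes, were measured at 10.00 to 72.5 normalized counts and are given as chosen after their values were seen. Col4a5 (X-linked) was lower in every semaglutide-treated mouse than in any vehicle-treated mouse (-1.62 ± 0.28 (SE, adjusted p = 0.00107)) and higher again with the ketone ester (1.48 ± 0.32 (SE, adjusted p = 0.00634)). Col4a3 and Col4a4, head to head on chromosome 1, gave -0.88 ± 0.29 (SE, adjusted p = 0.0354) and -0.80 ± 0.23 (SE, adjusted p = 0.021), with overlap between the groups for both. The Col4a3 call was lost in 7 of the 13 fits that left out 1 mouse (without mouse 3, 4, 5, 14, 15, 16 or 17, adjusted p up to 0.0887), and that of Col4a4 in 1, without mouse 5 (0.0552).

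Types XV and XVIII are collagens of the outer basement membrane zone that carry sugar chains. Col15a1 had 343, 535, 485, 541 and 479 in the vehicle-treated mice, 184, 90.2, 69.98, 70.9 and 65.6 in the semaglutide-treated mice, and 332, 451 and 324 in the semaglutide + ketone ester-treated mice. Its fall was the largest among basement membrane genes, -2.40 ± 0.24 (SE, adjusted p = 2.77e-05), or 0.19 of vehicle, with no overlap, and its return was 2.03 ± 0.28 (SE, adjusted p = 0.000579). Col18a1, whose C-terminal fragment is endostatin, had 152, 171, 183, 179.6 and 199 in the vehicle-treated mice, 94.8, 71.0, 53.3, 92.3 and 85.03 in the semaglutide-treated mice, and 153, 175 and 129 in the semaglutide + ketone ester-treated mice. The log2 fold changes were -1.17 ± 0.15 (SE, adjusted p = 0.00018) and 0.95 ± 0.18 (SE, adjusted p = 0.00278), again without overlap. Neither gene was called against vehicle under the combination (-0.37 ± 0.28 (SE, adjusted p = 0.743) and -0.22 ± 0.18 (SE, adjusted p = 0.756)). The 95% intervals there were -0.96 to 0.23 and -0.60 to 0.16, so equal levels are not shown. Col7a1, the chain of the anchoring fibrils known from skin, was named after its values were seen. Normalized counts of Col7a1 were 537, 748, 547, 453 and 552 in the vehicle-treated mice, 691, 793, 625, 591 and 966 in the semaglutide-treated mice, and 624, 465 and 467 in the semaglutide + ketone ester-treated mice. It was the one collagen gene with a positive log2 fold change under semaglutide, 0.37 ± 0.15 (SE, adjusted p = 0.0885), and had -0.49 ± 0.18 (SE, adjusted p = 0.0616) for the combination against semaglutide. Neither passed the threshold and the groups overlapped. It passed in the first comparison without mouse 2 (0.0353) and in the second without mouse 2, 13, 16 or 19 (0.046, 0.0456, 0.041 and 0.0424). It passed in both with columns rescaled to equal totals and with sample weights, and DESeq2 called it in the second.

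Type VI forms beaded microfilaments around muscle fibres from the α1, α2 and α3 chains, and mutations in their genes cause muscle disease. Col6a1 had 536, 1049.8, 857, 960.2 and 969 in the vehicle-treated mice, 488, 245, 193, 248 and 167 in the semaglutide-treated mice, and 689.9, 995 and 626 in the semaglutide + ketone ester-treated mice. Col6a2, its neighbour on chromosome 10, had 514, 989.6, 865, 1012 and 977 in the vehicle-treated mice, 474, 178, 130.0, 160.2 and 125 in the semaglutide-treated mice, and 672, 868 and 579 in the semaglutide + ketone ester-treated mice. In both, mouse 1 was lowest under vehicle and mouse 13 highest under semaglutide, the groups stayed apart, and the log2 fold changes were -1.77 ± 0.26 (SE, adjusted p = 0.000346) and -2.18 ± 0.31 (SE, adjusted p = 0.000287). Col6a3 (chromosome 1) had 446, 927, 844, 816 and 842 in the vehicle-treated mice, 581, 326, 259, 357 and 231 in the semaglutide-treated mice, and 567, 818 and 459 in the semaglutide + ketone ester-treated mice. The smaller change of this chain, -1.18 ± 0.25 (SE, adjusted p = 0.00412), came with an overlap of mice 1 and 13. With the ketone ester Col6a1 and Col6a2 were higher than under semaglutide, by 1.60 ± 0.30 (SE, adjusted p = 0.00259) and 1.90 ± 0.36 (SE, adjusted p = 0.00273), whereas Col6a3 gave 0.84 ± 0.29 (SE, adjusted p = 0.0526) and missed the threshold. It passed without mouse 1 (0.032) or without mouse 13 (0.0042), and ranged from 0.00309 to 0.231 over 23 alternatives. It was also called by DESeq2, with sample weights and with quantile normalization. Col6a6, an α3-like chain at 57.2 to 137 normalized counts under vehicle, fell by 1.69 and rose by 1.77 (adjusted p = 0.00296 and 0.00684). None of the 4 differed from vehicle under the combination, with log2 fold changes from -0.33 to 0.09, adjusted p of at least 0.78 in limma, and 0 called by edgeR or DESeq2.

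FACIT collagens bind to the surface of fibrils. All 7 tested had a negative log2 fold change under semaglutide, and 3 passed the threshold (13.9% of all genes tested were lower). Differences between these genes were not tested. Col12a1, a fibril-surface collagen of tendon and muscle fascia, had 45.8, 209, 209, 232 and 247 in the vehicle-treated mice, 93.8, 74.4, 44.4, 51.5 and 43.3 in the semaglutide-treated mice, and 103, 184 and 121 in the semaglutide + ketone ester-treated mice. Col14a1, its close relative, had 44.6, 111, 82.9, 143 and 171 in the vehicle-treated mice, 89.9, 59.7, 36.7, 52.4 and 31.3 in the semaglutide-treated mice, and 61.9, 178 and 119 in the semaglutide + ketone ester-treated mice. Col22a1, a collagen of the muscle-tendon junction, had 445, 553, 426, 428 and 439 in the vehicle-treated mice, 314, 168, 206, 147 and 109.7 in the semaglutide-treated mice, and 377, 484 and 582 in the semaglutide + ketone ester-treated mice. The first pair shared the low value of mouse 1, which placed it among the semaglutide-treated mice, while Col22a1 was no lower in mouse 1 and the groups did not overlap. Semaglutide lowered Col12a1 (-1.46 ± 0.40 (SE, adjusted p = 0.0154)) and Col22a1 (-1.36 ± 0.22 (SE, adjusted p = 0.000699)), and Col14a1 did not pass (-0.98 ± 0.38 (SE, adjusted p = 0.0696)). Col14a1 was called without mouse 1 (-1.26, adjusted p = 0.0191) or without mouse 13 (-1.18, 0.0205), within a range of 0.0125 to 0.165 over 23 alternatives. DESeq2 and the fit with sample weights also called its fall. Under the combination, Col22a1 was higher than under semaglutide (1.41 ± 0.25 (SE, adjusted p = 0.0021)), while Col12a1 and Col14a1 gave 1.16 ± 0.46 (SE, adjusted p = 0.0878) and 1.10 ± 0.44 (SE, adjusted p = 0.0861). Col12a1 passed without mouse 1 (0.00767) or 13 (0.0378) and Col14a1 without mouse 13 (0.0261) or 19 (0.0431). Both were also called by DESeq2 and with sample weights, and Col12a1 with only the 2 groups compared in the fit. Of the others, Col16a1 fell and returned (-1.01 ± 0.19 (SE, adjusted p = 0.00201) and 1.16 ± 0.22 (SE, adjusted p = 0.00291)). Col9a1, Col19a1 and Col20a1 passed in neither comparison in the main fit. With sample weights, Col9a1 and Col20a1 were called higher under the combination than under semaglutide.

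Among transmembrane collagens, Col13a1 is a component of the neuromuscular junction. Normalized counts of Col13a1 were 10.3, 27.7, 18.6, 9.98 and 13.97 in the vehicle-treated mice, 17.4, 12.4, 10.00, 9.71 and 8.21 in the semaglutide-treated mice, and 9.72, 12.1 and 14.4 in the semaglutide + ketone ester-treated mice. The groups overlapped, at -0.39 ± 0.33 (SE, adjusted p = 0.405) with a 95% interval of -1.09 to 0.31, so that both a fall and a rise are within it, and Col23a1 gave -0.04 ± 0.21 (SE, adjusted p = 0.909). Col8a1, the type VIII chain of vessel walls, was named after its values were seen: it was 104, 109 and 103 under the combination, above all vehicle-treated (44.5 to 94.3) and semaglutide-treated mice (49.98 to 68.7). Against semaglutide this was 0.83 ± 0.20 (SE, adjusted p = 0.0121), a call lost without mouse 21 (0.0525), and against vehicle 0.63 ± 0.20 (SE, adjusted p = 0.26), where 5.45% of all genes tested were higher without overlap. Col8a2 varied from 3.43 in mouse 1 to 58.8 among vehicle-treated mice and passed in no comparison in limma with all mice, while semaglutide against vehicle was called by DESeq2, and by limma without mouse 1 (adjusted p = 0.00594). The 11 genes under the mean of 10 were Col2a1, Col4a6, Col6a4, Col6a5, Col9a2, Col9a3, Col10a1, Col17a1, Col25a1, Col26a1 and Col28a1, which include the cartilage chains of types II, IX and X and the epithelial type XVII. No mouse exceeded 37.8 normalized counts for any of them, a value of Col17a1 in mouse 1, where the other vehicle-treated mice had 2.47 to 3.61.

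Levels of different chains were compared per kilobase of exon. In vehicle-treated mice Col4a1 and Col4a2 led, at 304 ± 10.4 and 297 ± 16.3 normalized counts per kb (SD, n = 5), followed by Col1a1 at 224 ± 73.6, Col6a1 at 200 ± 46.0, Col1a2 at 173 ± 62.2, Col3a1 at 161 ± 40.6 and Col6a2 at 105 ± 25.0. Neighbours in this order lay within 1 SD of each other by the larger SD of the pair, except Col3a1 and Col6a2. Of the summed collagen level per kb, fibrillar genes made up 36.3% ± 5.4 (SD, n = 5) in vehicle-treated mice, 21.5% ± 5.4 (n = 5) in semaglutide-treated mice and 40.9% ± 5.0 (n = 3) with the ketone ester. The mean basement membrane share went the other way, 38.4% ± 6.7, 51.5% ± 9.0 and 30.4% ± 4.8, and was the largest mean share under vehicle as well as under semaglutide. Mice of these 2 groups overlapped in both shares. Basement membrane genes held 34.6% to 50.4% under vehicle and 36.3% to 60.1% under semaglutide, and fibrillar genes 26.7% to 39.5% and 17.4% to 30.9%. Type VI kept a similar share, 18.3% ± 1.8, 16.1% ± 3.5 and 19.7% ± 1.2.

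Ratios between chains in the same mouse do not depend on how libraries are scaled, and 7 such ratios, chosen with the values known, were compared between the 3 pairs of groups (21 exact permutation tests over mice, doubling the smaller tail, with Benjamini-Hochberg adjustment). None of the 21 passed 0.05 after adjustment, the lowest adjusted p being 0.0938, while 8 had an unadjusted p under 0.05, and the smallest p the design allows is 0.00794 for 5 against 5 mice and 0.0357 for 3 against 5. The ratio of Col6a3 to Col6a1 was 0.305, 0.323, 0.360, 0.311 and 0.318 in vehicle-treated mice, 0.436, 0.488, 0.490, 0.528 and 0.507 in semaglutide-treated mice, and 0.301, 0.301 and 0.268 with the ketone ester. No group overlapped another (exact permutation p = 0.00794, 0.0357 and 0.0357, the smallest the design allows; adjusted p = 0.0938 for each), and mouse 13 lay with its own group here. The ratio of Col6a2 to Col6a1 was 0.523 ± 0.0234 (SD, n = 5), 0.396 ± 0.0673 (n = 5) and 0.486 ± 0.0266 (n = 3), lower under semaglutide than under vehicle apart from mouse 13 (exact permutation p = 0.0238, adjusted p = 0.0938). Col4a2 stayed near parity with Col4a1 throughout, at 0.975 ± 0.0509, 1.08 ± 0.0818 and 0.971 ± 0.0882, with a small difference between semaglutide and vehicle (exact permutation p = 0.0238, adjusted p = 0.0938). For type I the ratio of Col1a2 to Col1a1 was 0.758 ± 0.0552, 0.843 ± 0.116 and 0.767 ± 0.0734, with overlapping groups.

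The ratio of Col4a1 to Col1a1 sets the basement membrane chain against the fibrillar chain. It was 3.26, 1.26, 1.15, 1.19 and 1.14 in vehicle-treated mice, 1.83, 4.02, 4.61, 8.07 and 8.40 in semaglutide-treated mice, and 1.07, 0.536 and 0.966 in semaglutide + ketone ester-treated mice. Semaglutide-treated mice were higher than vehicle-treated mice other than mouse 1, and every semaglutide + ketone ester-treated mouse lay below every mouse of both other groups. The exact permutation p was 0.0159 for semaglutide against vehicle and 0.0357, the smallest the design allows, for the combination against semaglutide and against vehicle (adjusted p = 0.0938 for each).

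**Figure D4:**
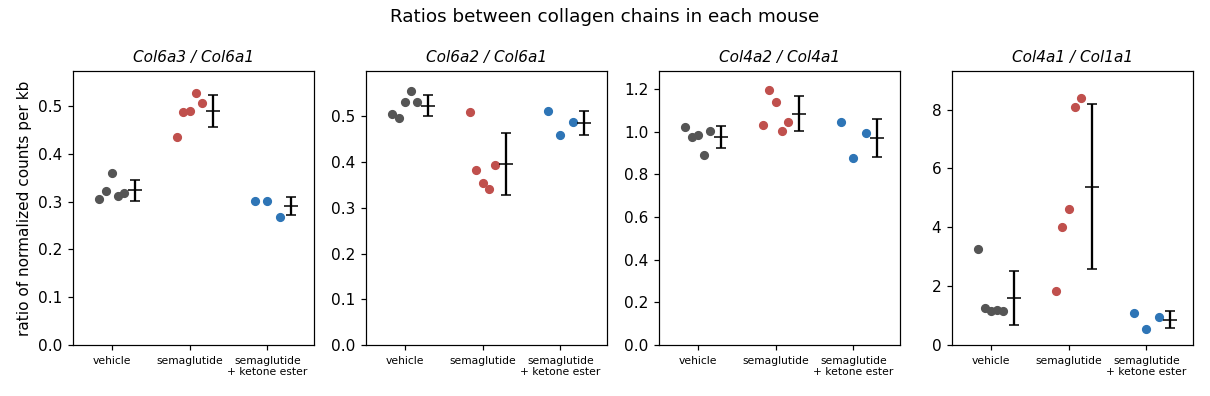
Ratios of normalized counts per kb between collagen chains in each mouse (points) with the group mean and SD (bar), on axes from 0. The Col6a3 to Col6a1 ratio is 0.436 to 0.528 under semaglutide and at most 0.360 elsewhere, and the Col4a1 to Col1a1 ratio is lowest, at most 1.07, with the ketone ester.

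The machinery that makes collagen was counted from lists of other genes, which were also chosen with earlier results of these data known. Over all genes tested, 12.5% were higher and 13.9% lower under semaglutide than under vehicle. With the ketone ester, 10% were higher and 10.7% lower than under semaglutide. Of 18 tested genes for chain modification and folding, 1 was higher and 6 lower under semaglutide than under vehicle, and 3 were higher and 1 lower with the ketone ester than under semaglutide (medians -0.22 and 0.005). Serpinh1, the collagen chaperone HSP47, had the largest fall, -1.12 ± 0.17 (SE, adjusted p = 0.000575), and 0.64 ± 0.20 (SE, adjusted p = 0.0361) with the ketone ester. P4hb, a subunit of prolyl 4-hydroxylase that is also a general disulfide isomerase, had the highest counts and moved the other way, 0.90 ± 0.15 (SE, adjusted p = 0.000775) and -0.84 ± 0.17 (SE, adjusted p = 0.00407). For propeptide removal and crosslinking, 0 of 11 were higher and 5 lower under semaglutide (0 higher at an unadjusted p under 0.05, by edgeR and by DESeq2), and 3 were higher with the ketone ester. Loxl2, a lysyl oxidase of basement membrane collagen, fell most, -1.79 ± 0.19 (SE, adjusted p = 4.53e-05), and returned, 1.41 ± 0.22 (SE, adjusted p = 0.00108), and Pcolce, an enhancer of procollagen cleavage and the most abundant of the list, had -0.98 ± 0.25 (SE, adjusted p = 0.0113) and 0.89 ± 0.29 (SE, adjusted p = 0.0418).

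The counts of the next 3 lists stand against 12.5% of all genes tested higher and 13.9% lower under semaglutide. Among 7 collagen receptors, 1 was lower under semaglutide, near that share. It was the uptake receptor Mrc2 (-0.78 ± 0.23 (SE, adjusted p = 0.0232)), whereas the integrin β1 chain Itgb1, the most abundant, had -0.21 ± 0.074 (SE, adjusted p = 0.0518). Among 8 genes of collagen breakdown 2 were lower and 0 higher (0 higher also at an unadjusted p under 0.05, by edgeR and by DESeq2): the gelatinase Mmp2 (-0.89 ± 0.20 (SE, adjusted p = 0.00634)) and the inhibitor Timp2, and both were higher again with the ketone ester. Timp3, the most abundant of that list, had -0.18 ± 0.099 (SE, adjusted p = 0.203). Of 9 regulators, the transforming growth factor β receptors Tgfbr1 and Tgfbr2 were higher under semaglutide and the signal transducer Smad3, the most abundant, was lower (-1.09 ± 0.27 (SE, adjusted p = 0.00955)), with 0.18 ± 0.31 (SE, adjusted p = 0.724) when the ketone ester was added. In none of these 5 lists did a gene differ between the combination and vehicle by limma or edgeR, while DESeq2 called 1, a higher regulator, and 7 had an unadjusted p under 0.05. By limma, 0.268% of all genes tested were lower and 0.0975% higher in that comparison, so few calls would be met in any list.

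Most markers of fibroblasts and tendon cells were lower under semaglutide, and in bulk RNA fewer cells of a type cannot be told apart from less RNA per cell. Of 8 fibroblast markers, 6 were lower under semaglutide than vehicle (13.9% of all genes tested) and 4 higher with the ketone ester than under semaglutide (10%). The summed level was 13269 to 27883 in vehicle-treated, 11359 to 14966 under semaglutide and 13979 to 20609.6 with the ketone ester. Pi16, a marker of adventitial fibroblasts, fell most (-1.77 ± 0.36 (SE, adjusted p = 0.00317)), the abundant Gsn had -1.08 ± 0.20 (SE, adjusted p = 0.00191), and Dcn and Ly6a did not pass. Of 6 tendon cell markers 4 were lower under semaglutide (13.9% of all genes tested). With the ketone ester 4 were higher (10%) and 1, the tendon transcription factor Scx, was lower (10.7%). Kera, a proteoglycan of cornea and tendon, had 24.03, 117, 91.6, 174 and 123 normalized counts in vehicle-treated, 8.70, 3.38, 0, 0 and 1.49 in semaglutide-treated and 119, 196 and 139 in semaglutide + ketone ester-treated mice, with 0 in mice 15 and 16. The summed tendon markers were 1277 in mouse 1 against 4748 to 6840.3 in the other vehicle-treated mice, 747 to 2721 under semaglutide, with mouse 13 the highest, and 3353 to 4187 with the ketone ester. In the fibroblast sum, mouse 1 (13269) and mouse 22 (13979) lay within the semaglutide range, whereas in the tendon sum mouse 22 was above every semaglutide-treated mouse, and the part of either cell type in the collagen result was not tested. In mouse 1, with the lowest tendon marker sum under vehicle, Col4a1 and Col4a2 lay within the range of the other vehicle-treated mice. This is 1 mouse, and a link was not tested.

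**Figure D5:**
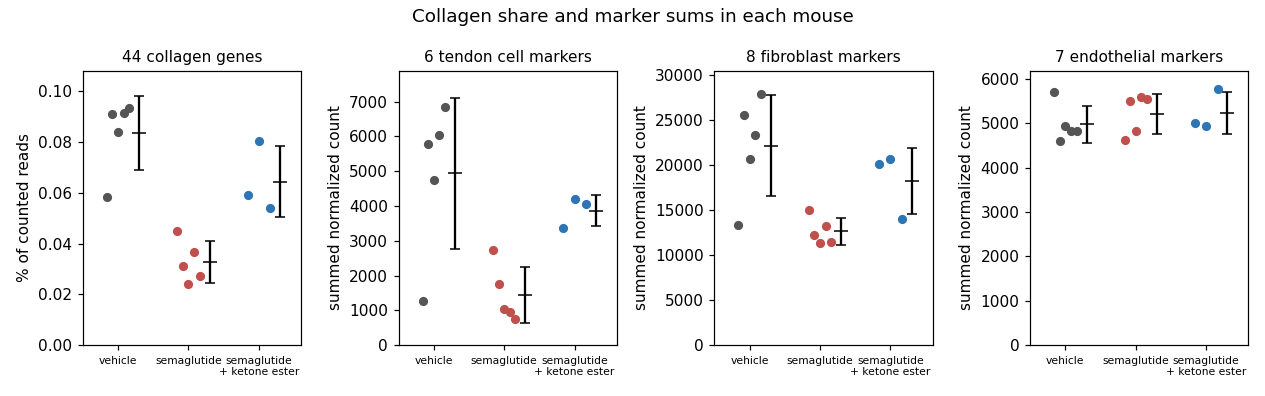
Share of counted reads on the 44 collagen genes (left) and summed normalized counts of tendon cell, fibroblast and endothelial markers in each mouse (points), with the group mean and SD (bar), on axes from 0. Mouse 1 is the low vehicle point in the first 3 panels, and the endothelial sums of the 3 groups overlap.

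Of 7 endothelial markers 0 changed under semaglutide in limma, edgeR and DESeq2 (2 at an unadjusted p under 0.05), where limma called 12.5% of all genes tested higher and 13.9% lower. With the ketone ester 3 were higher than without it (10% of all genes tested), and the sums were 4607 to 5699, 4631 to 5592.5 and 4933 to 5774. Of 6 mural cell markers 4 were lower under semaglutide (13.9% of all genes tested) and 3 higher with the ketone ester (10%), with sums of 7178 to 9452, 4458 to 6434 and 7261 to 8132. Rgs5, a pericyte gene and the most abundant of them, had -0.62 ± 0.13 (SE, adjusted p = 0.00438) under semaglutide. These cells are among the sources of type IV chains, and the part of either in the Col4a1 and Col4a2 result was not tested. Schwann cell (6), macrophage (6), satellite cell (3) and adipocyte markers (5) had 0 calls in every comparison by limma, edgeR and DESeq2, with 2 at an unadjusted p under 0.05, both under semaglutide. The adipocyte sum was 6114 in semaglutide-treated mouse 16, against 46.2 to 486 in the others of its group and 332 to 2217 under vehicle. Its part in the collagen values of that mouse was not tested. Of 6 cartilage and bone markers, 1 (Sox9) was high enough to be tested and was not called, and Bglap was listed at 0 in every mouse. The muscle fibre markers that define the tissue were abundant in every mouse. Their summed level was 2359330 to 2897430 under vehicle, 1460890 to 2631670 under semaglutide and 3035940 to 3581450 with the ketone ester. Every semaglutide + ketone ester-treated mouse was thus above every other mouse, and the part of this in the collagen result was not tested. Of the 7 markers 1, Pvalb, was lower under semaglutide (13.9% of all genes tested) and 3 were higher with the ketone ester (10%). By limma and edgeR no cell marker of these 10 lists differed between the combination and vehicle, where limma called 0.268% of all genes tested lower and 0.0975% higher.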

How the data were processed

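RNA of frozen gastrocnemius from 13 mice was sequenced as 1 library per mouse by the authors (Illumina Stranded mRNA Prep), who, per the labels' processing notes, used DRAGEN, DESeq2 and mm10. The program that counted reads and the annotation are not given in the sources used here. The authors deposited a normalized signal per gene, which is read counts divided by a factor per library. Whole reads were recovered for 100% of values (within 0.01), and the factors lay within 1.33% of median-of-ratios factors. There were 15319471 to 23498162 reads per library. No intervals are given for counts. The intervals given for fold changes come from the limma fit and rest on the spread between mice.

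From the deposited signal, log2(normalized count + 1) was computed for 12303 of 21868 genes with a mean of at least 10. All 3 groups were fitted with limma 3.58.1 (intensity trend), p-values were Benjamini-Hochberg adjusted over all genes tested, and the threshold was 0.05. The pseudocount of 1 understates changes of low genes. The fit was run on simulated counts with the same dispersion for every gene and no outlying mouse. That run does not cover genes in which mouse 1 or mouse 13 stood apart. edgeR 4.0.16 and DESeq2 1.42.0 on the recovered reads were alternatives. Exon lengths and positions are from GENCODE for GRCm38 (mm10), and 44 of 44 collagen genes matched by symbol. Scales, pseudocounts, filters, weights and single mice left out were further alternatives. Collagen genes and all lists (chain modification, crosslinking, receptors, breakdown, regulators and markers of 10 cell types) were chosen with earlier results of these data known. Values per mouse were given for chains of types I, III, IV (α1, α2), V and VI, for Col12a1, Col13a1, Col14a1, Col15a1, Col18a1 and Col22a1, and for the 3 largest called changes of each comparison; per list, the largest called change and the highest gene were named. Other genes were named after their values were seen. Mice were the replicates, and the limma p-values set a difference between groups against the spread between mice. That spread was shared by the 3 groups and drawn toward a trend over genes of similar level.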

Additional observations from a re-analysis of the deposited data

Results flagged for a closer look

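A value was set apart here where its gap to the nearest mouse of its group, divided by the range of the group, was above 0.71, the critical value of Dixon's test for 5 mice. Of 58 groups of values looked at, 14 met this. Chance alone gives about 1 in 20 of independent groups. These groups share the same mice and include genes named after their values were seen, so that rate cannot be set against the 14. Vehicle-treated mouse 1 was the lowest of its group for Col1a1 (gap ratio 0.927, 611 normalized counts against 1654 to 1736 in the others), Col1a2 (0.764, 795 against 2259 to 2713), Col3a1 (0.799, 883 against 1646 to 1838), Col6a3 (0.769, 446 against 816 to 927) and Col12a1 (0.812, 45.8 against 209 to 247), for the collagen share of reads (0.731, 0.0584% against 0.0841% to 0.0936%), and the highest for the ratio of Col4a1 to Col1a1 per length (0.945, 3.26 against 1.14 to 1.26).

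Semaglutide-treated mouse 13 was the highest of its group for Col1a2 (0.843, 736 against 169 to 258), Col5a1 (0.798, 412 against 120.1 to 179), Col6a1 (0.749, 488 against 167 to 248), Col6a2 (0.849, 474 against 125 to 178) and Col15a1 (0.792, 184 against 65.6 to 90.2). A further vehicle-treated mouse was set apart for each of 2 genes, mouse 2 for Col22a1 (0.847, 553 against 426 to 445) and mouse 4 for Col24a1 (0.716, 206 against 120.4 to 145). The flags fell mainly on mouse 1 and mouse 13. Their tendon marker sums were the lowest of the vehicle-treated and the highest of the semaglutide-treated mice, and a link was not tested.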

How the results depend on the processing

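Of the 46 collagen differences past the threshold, 0 changed direction in the fits without 1 mouse or, for the 17 genes followed through every alternative, in the others. Of the 53 that did not pass, 10 changed sign in 1 or more of these, all with log2 fold changes between -0.15 and 0.16; for the combination against vehicle, Col1a1 went from 0.00 to -0.29 without mouse 1 and to -0.35 without mouse 21. The number of collagen genes called was 21 to 25 for semaglutide against vehicle, 13 to 25 for semaglutide + ketone ester against semaglutide and 1 to 2 for semaglutide + ketone ester against vehicle when 1 mouse was left out, with the lowest values without mouse 21 (13) and without mouse 22 (1). The median log2 fold changes then lay between -1.38 and -1.13, 0.89 and 1.31, and -0.33 and -0.08. edgeR called 21, 20 and 2 genes, DESeq2 23, 24 and 2, and sample weights 25, 27 and 3. With only the 2 groups compared in the fit, 16 genes rather than 21 were called for the combination against semaglutide. Rescaling columns to equal totals put the all-gene median at 0.17 for semaglutide against vehicle (3351 higher and 985 lower) and to -0.24 for the combination against semaglutide. Collagen calls were then 1 higher and 22 lower, and 17 higher and 1 lower, the exception being Col7a1 in both, and the causes of these changes were not tested. Read depth limits the 11 genes that were not tested, for which a difference was not detectable at this depth. No paired analysis was possible because the groups share no replicate numbers in the labels.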
